A study of Mus musculus with 12 samples.

Results

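The 10 genes described here are markers of the cells that wrap blood vessels, the smooth muscle cells of arteries and the pericytes of capillaries. They were chosen by name: Acta2, Tagln, Myh11, Cnn1, Smtn and Lmod1 encode proteins of the smooth muscle contractile apparatus, and Pdgfrb, Rgs5, Cspg4 and Notch3 encode proteins long used as marks of pericytes and other mural cells. All 10 were among the 55421 genes counted, and all 10 were among the 17376 with enough counts to be tested. Ventricular RNA of wild-type (WT) mice was sequenced as 12 libraries, 4 for each of 3 treatments. The Con group received saline and vehicle, the Ang II group received angiotensin II from a minipump placed under the skin on day 0 together with vehicle, and the Ang II_FI group received the same pump and Forsythoside I (FI, a plant glycoside) injected into the abdomen at 50 mg/kg every other day up to day 14. No group received FI without angiotensin II. The age, sex and strain of the mice and the angiotensin II dose are not stated in the labels. The labels do not say which mouse gave which library, so p-values measure the spread between these libraries.

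Smooth muscle cells turn on their contractile genes when serum response factor and its partner myocardin bind CArG boxes, short AT-rich elements near those genes. Pericytes carry the receptor for platelet-derived growth factor B, which endothelial cells release to recruit them, and Notch3 passes signals from endothelial ligands into mural cells. Fibroblasts that become myofibroblasts in a stressed heart also make Acta2, Tagln and Cnn1, so these genes mark more than the vessel wall. In RNA from whole tissue, fewer cells of a type and less RNA per cell cannot be told apart.

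RefSeq promoter entries (build GRCm38.p6) were matched for 7 of the 10 genes, by symbol, and those of Tagln, Myh11 and Pdgfrb were not used here. Within 250 bases upstream of the start, on both strands, none of the 7 held an exact CArG box, and 1.4% of 27025 promoters of the same length did. A CArG box or a sequence 1 letter away from it lay upstream of Acta2, Lmod1 and Cspg4, 3 of 7, and in 18.9% of all promoters. In Acta2 these were CCCTATATGG at -84 to -75, counted in bases back from the start, and CCTTGTTTGG at -34 to -25, both inside an annotated exon of another transcript start. The E-box CAGCTG, read on both strands, lay upstream of Acta2 and Lmod1 and in 12.8% of all promoters. The stretches outside annotated exons are shown for Cnn1 and Smtn, which passed the test in the comparison of Ang II with Con, and for Lmod1, with the largest fitted difference between Ang II_FI and Ang II. They read 5′ to 3′ on the strand of the gene, and capitals mark the sequences 1 letter away from a CArG box. Cnn1 is on the plus strand at chr9:22099003-22099215, Smtn on the minus strand at chr11:3539324-3539542 and Lmod1 on the plus strand at chr1:135324563-135324806. The Smtn stretch lies inside the annotated span of the gene (3517523 to 3540612). It is thus upstream of the RefSeq start used and not of the whole gene.
Cnn1: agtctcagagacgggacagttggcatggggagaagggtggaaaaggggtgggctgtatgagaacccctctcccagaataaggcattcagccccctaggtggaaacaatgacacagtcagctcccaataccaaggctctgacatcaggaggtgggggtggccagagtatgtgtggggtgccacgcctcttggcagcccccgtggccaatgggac
Smtn: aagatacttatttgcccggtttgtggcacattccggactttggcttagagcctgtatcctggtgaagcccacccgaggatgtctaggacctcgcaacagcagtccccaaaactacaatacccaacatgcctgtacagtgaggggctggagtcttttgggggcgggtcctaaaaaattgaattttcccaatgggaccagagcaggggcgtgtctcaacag
Lmod1: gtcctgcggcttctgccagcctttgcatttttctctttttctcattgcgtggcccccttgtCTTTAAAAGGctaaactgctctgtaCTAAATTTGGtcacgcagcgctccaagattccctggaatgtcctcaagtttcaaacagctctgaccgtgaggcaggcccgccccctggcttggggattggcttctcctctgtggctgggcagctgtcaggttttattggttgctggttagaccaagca
Only the Lmod1 stretch of these 3 holds capitals, at -189 to -180 and at -164 to -155. Such a match is a description of letters and says nothing of whether a factor binds there.

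The libraries held 68874852 to 80624227 counts, and mitochondrially encoded genes took 29.1% to 38.8% of them. Levels are counts scaled to the library total (CPM, the usual unit of such scaled counts), and 3 counts correspond to 0.0372 to 0.0436 CPM, a limit that covers counting error only. Markers of heart muscle were high in every library (10 genes summing to 33110 to 46530 CPM), and of 6 atrial genes Myl7, Sln and Bmp10 were at most 0.714 CPM and Myl4 at most 2.13 CPM. The other atrial genes were present, Kcnj3 at 4.72 to 13.4 CPM and Nppa, which ventricles also make under load, at 95.7 to 422 CPM. The atrial sum, mostly Nppa, was 107 to 139 CPM in Con, 285 to 356 CPM in Ang II and 337 to 430 CPM in Ang II_FI. The library of Ang II_FI replicate 3 stood apart: 15 hepatocyte genes summed to 26780 CPM there, 92.5 CPM in Ang II replicate 3 and 27.3 to 43.1 CPM in the other 10. Trf, 1 of the 15, was at 23.9 CPM or more in every library and made up most of the sum in those other 10. Because of the hepatocyte sum in Ang II_FI replicate 3, Ang II_FI values of the 10 genes are given with and without that library. Fitted differences are log2 fold changes with their standard errors from edgeR's quasi-likelihood test, and a gene is said to have risen or fallen when its Benjamini-Hochberg adjusted p over all tested genes was under 0.05.

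In the Con ventricle the most abundant of the 10 transcripts, per kilobase of exon, was that of Rgs5. Rgs5 lay at 142 ± 14.0 CPM per kilobase (mean ± SD, n = 4) and Acta2 at 62.4 ± 18.2, followed by Smtn at 26.9 ± 3.14 and Pdgfrb at 8.90 ± 1.43. Tagln lay at 5.79 ± 0.700, Notch3 at 2.5 ± 0.485, Myh11 at 1.37 ± 0.184 and Cspg4 at 0.841 ± 0.222 CPM per kilobase. Lmod1, at 0.382 ± 0.0854, and Cnn1, at 0.203 ± 0.0491, were the least abundant. No neighbours in this order overlapped in their Con values. The order held in the other groups except at its foot, where the mean of Cnn1 was above that of Lmod1 (0.522 against 0.446 CPM per kilobase in Ang II, 0.351 against 0.242 in Ang II_FI) with overlapping values. Neighbours also overlapped for Pdgfrb and Tagln and for Notch3 and Myh11 in Ang II, and for Myh11 and Cspg4 in Ang II_FI.

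**Figure D1:**
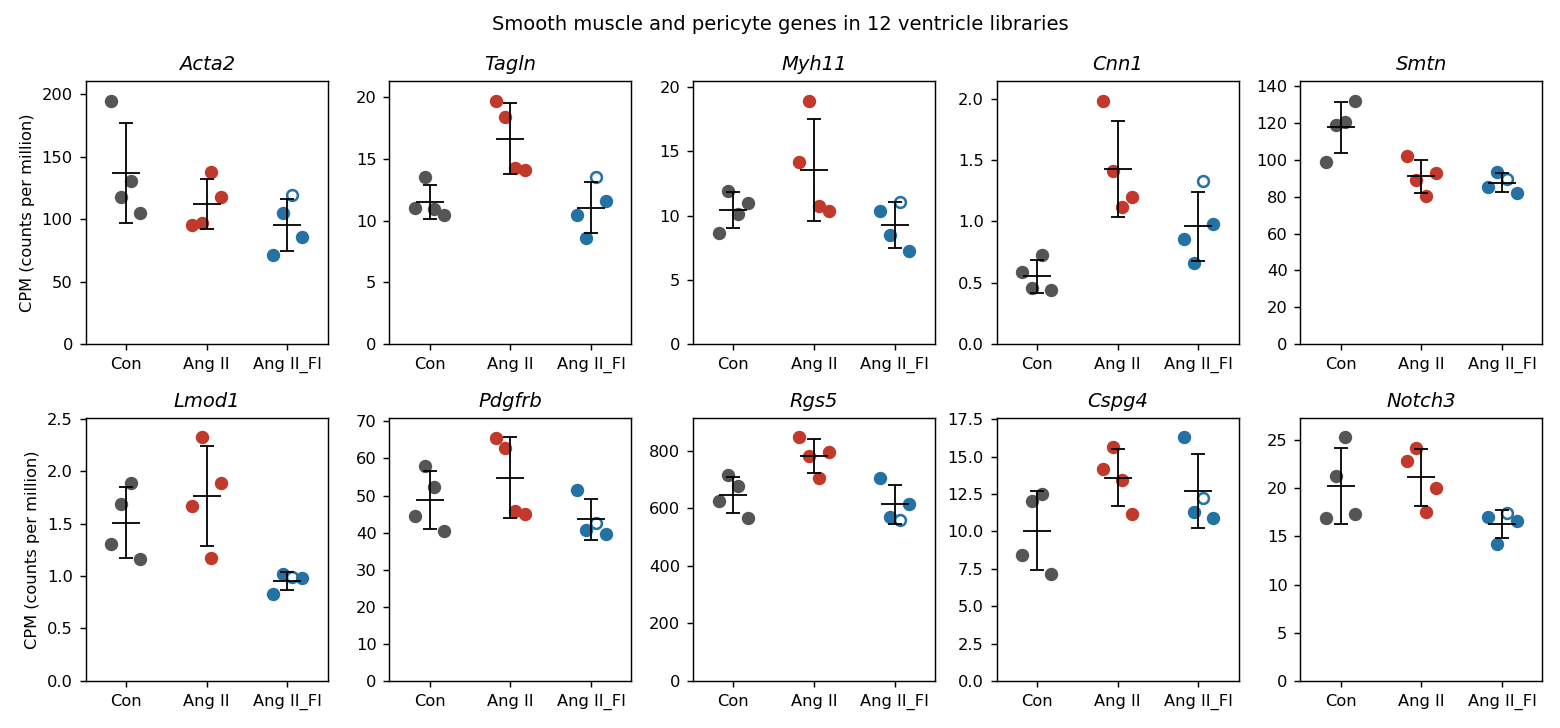
Level of each of the 10 genes in CPM (vertical axis, from 0) in the 4 libraries of each group, with 1 point per library and the mean and SD as bars; the open point is Ang II_FI replicate 3. The 4 Ang II values of Cnn1 and of Tagln lie above the 4 Con values, and the 4 Ang II_FI values of Lmod1 lie below all 8 others.

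The comparison of Ang II with Con asks which of the 10 transcripts differ under angiotensin II infusion. RNA of whole ventricles does not tell which cells, of the vessel wall or others, made them. Among the contractile genes 1 rose and 1 fell: Cnn1 went up 2.52-fold and Smtn went down to 0.765 times the Con level. None of the 4 pericyte and mural genes passed edgeR's test or DESeq2, and 2 of them (Rgs5 and Cspg4) had an unadjusted edgeR p under 0.05. Members called were thus 2 of 10, against 2.23% of all tested genes (1.57% higher and 0.662% lower). At an unadjusted p under 0.05 they were 5 of 10, 4 higher and 1 lower, against 16.8% of all genes. The median log2 fold change of the 10 was 0.23, and that of all tested genes was 0.0047. Above 0 lay 8 of the 10 and 50.6% of all genes, and below 0 lay 2 of the 10 and 49.4%.

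Cnn1 encodes calponin, a protein that binds actin and dampens the ATPase of smooth muscle myosin (chromosome 9, 22099216 to 22109630, GRCm38). It had few reads, 31 to 138 counts per library. Its level was 0.587, 0.461, 0.730 and 0.439 CPM in Con replicates 1 to 4 and 1.99, 1.41, 1.11 and 1.203 CPM in Ang II. Every Ang II library was above every Con library, and Ang II replicate 1 was the highest. The fitted log2 fold change was 1.33 ± 0.27 (95% interval 0.74 to 1.93), with an edgeR adjusted p of 0.0293. Leaving out Con replicate 1, 2 or 4 or any 1 of the 4 Ang II libraries ended the call (log2 fold changes 1.17 to 1.47 with any 1 of the 12 libraries left out), as did testing all genes with any count.

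Smtn encodes smoothelin, an actin-binding protein of contractile smooth muscle (chromosome 11, 3517523 to 3540612). Its level was 99.0, 119, 120 and 132 CPM in Con and 102, 89.1, 80.6 and 93.1 CPM in Ang II. Only Ang II replicate 1 reached into the Con range, where Con replicate 1 was the lowest. The log2 fold change was -0.39 ± 0.08 (95% interval -0.56 to -0.21, edgeR adjusted p = 0.0329). The call was lost without Con replicate 2, 3 or 4, without Ang II replicate 2, 3 or 4, without Ang II_FI replicate 4, without Ang II replicate 3 and Ang II_FI replicate 3 together, with all genes of any count tested, and with scaling by library totals alone (log2 fold changes -0.44 to -0.33 with any 1 of the 12 libraries left out).

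Tagln encodes transgelin, also called SM22-alpha, an actin-binding protein that is among the earliest marks of smooth muscle (chromosome 9, 45929619 to 45936058). It lay at 11.1, 13.6, 11.0 and 10.4 CPM in Con and at 19.7, 18.4, 14.3 and 14.1 CPM in Ang II. The groups did not overlap, which held for 2 of the 10 genes in the higher direction (Tagln and Cnn1) and for 7.74% of all genes, and in the lower direction for 0 of 10 against 4.56%. The log2 fold change was 0.51 ± 0.14 (95% interval 0.21 to 0.81), with an edgeR adjusted p of 0.0807 and a DESeq2 adjusted p of 0.0239. Tagln shares 1241 exonic bases with the antisense gene Gm48529, and the strand setting of the counting is not known, so its reads and those of that gene cannot be told apart there.

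The other contractile genes were less uniform. Myh11, the myosin heavy chain that gives smooth muscle its force (chromosome 16, 14194535 to 14291372), lay at 8.64, 12.0, 10.2 and 11.0 CPM in Con and at 14.2, 19.0, 10.8 and 10.4 CPM in Ang II. Ang II replicates 1 and 2 stood above all Con libraries and replicates 3 and 4 lay within their range (log2 fold change 0.35 ± 0.18, edgeR adjusted p = 0.367). Acta2 encodes smooth muscle alpha-actin, the actin isoform of the contractile filament (chromosome 19, 34241090 to 34255590). It lay at 195, 118, 131 and 105 CPM in Con and at 95.1, 97.3, 138 and 118 CPM in Ang II. Con replicate 1 was far above the rest, and the other Con values overlapped those of Ang II (-0.31 ± 0.22 on the log2 scale, edgeR adjusted p = 0.555; -0.06 without Con replicate 1). Lmod1 encodes leiomodin, which seeds new actin filaments (chromosome 1, 135324807 to 135368065), and it had 58 to 160 counts per library. It lay at 1.30, 1.69, 1.89 and 1.16 CPM in Con and at 1.67, 2.32, 1.17 and 1.89 CPM in Ang II, where only replicate 2 was above the Con range (0.20 ± 0.23, edgeR adjusted p = 0.741).

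Rgs5, which encodes a regulator that shortens G-protein signalling, including that of the angiotensin receptor (chromosome 1, 169655501 to 169695813), was the pericyte marker with the highest level. It lay at 626, 714, 677 and 567 CPM in Con and at 847, 781, 704 and 796 CPM in Ang II. Ang II replicate 3 was the only library of its group inside the Con range. The log2 fold change was 0.25 ± 0.10 (95% interval 0.04 to 0.47), and the edgeR adjusted p of 0.221 missed the threshold. Cspg4 encodes the NG2 proteoglycan of the pericyte surface (chromosome 9, 56865033 to 56899870). It lay at 8.43, 12.1, 12.5 and 7.16 CPM in Con and at 14.2, 15.7, 13.4 and 11.1 CPM in Ang II, where replicate 4 alone overlapped Con (0.42 ± 0.19, edgeR adjusted p = 0.286). Pdgfrb, the receptor for platelet-derived growth factor B, ranged from 40.3 to 57.9 CPM in Con and from 45.01 to 65.6 CPM in Ang II. Notch3 (chromosome 17, 32120820 to 32166852) ranged from 16.9 to 25.3 CPM in Con and from 17.6 to 24.2 CPM in Ang II. Both groups overlapped for these 2 genes, with log2 fold changes of 0.15 ± 0.14 for Pdgfrb and 0.05 ± 0.12 for Notch3 and 95% intervals of -0.17 to 0.46 and -0.22 to 0.31.

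**Figure D2:**
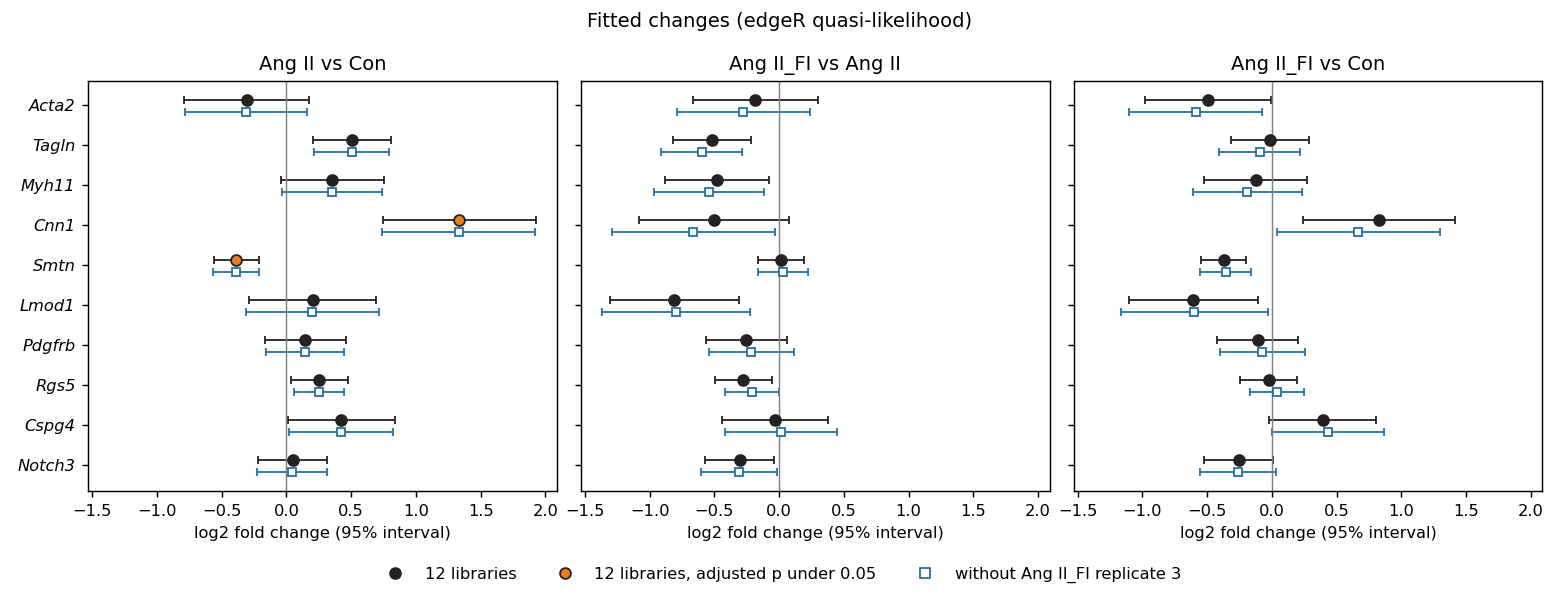
Fitted log2 fold change (horizontal axis) of each gene in the 3 comparisons, with bars for the 95% interval; circles use 12 libraries, orange where the edgeR adjusted p was under 0.05, and open squares leave out Ang II_FI replicate 3. Only Cnn1 (1.33) and Smtn (-0.39) in Ang II against Con are orange, and in Ang II_FI against Ang II 9 of the 10 circles lie below 0.

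The libraries of a group were not alike across the 10 genes. Relative to the Con mean, on log2(CPM + 0.5), the median of the 10 genes was 0.41 in Ang II replicate 1 and 0.44 in replicate 2, against 0.05 in replicate 3 and 0.09 in replicate 4. Ang II replicate 1 was the highest of its group for 5 genes (Tagln, Cnn1, Smtn, Pdgfrb and Rgs5) and replicate 2 for 4 (Myh11, Lmod1, Cspg4 and Notch3). Acta2 ran the other way, with its lowest Ang II value in replicate 1. A list of 12 endothelial genes split the Ang II libraries in the same manner, at 1162 and 1093 CPM in replicates 1 and 2 and 870 and 871 CPM in replicates 3 and 4. In Con, replicate 4 was the lowest for 7 of the 10 genes and the highest for 1, Smtn. It also had the lowest endothelial sum, 623 CPM against 838 to 981 CPM in the others. Its sum of heart muscle markers, 46530 CPM, was the highest of the 12 libraries. The part of endothelial or heart muscle content in these values was not tested.

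**Figure D3:**
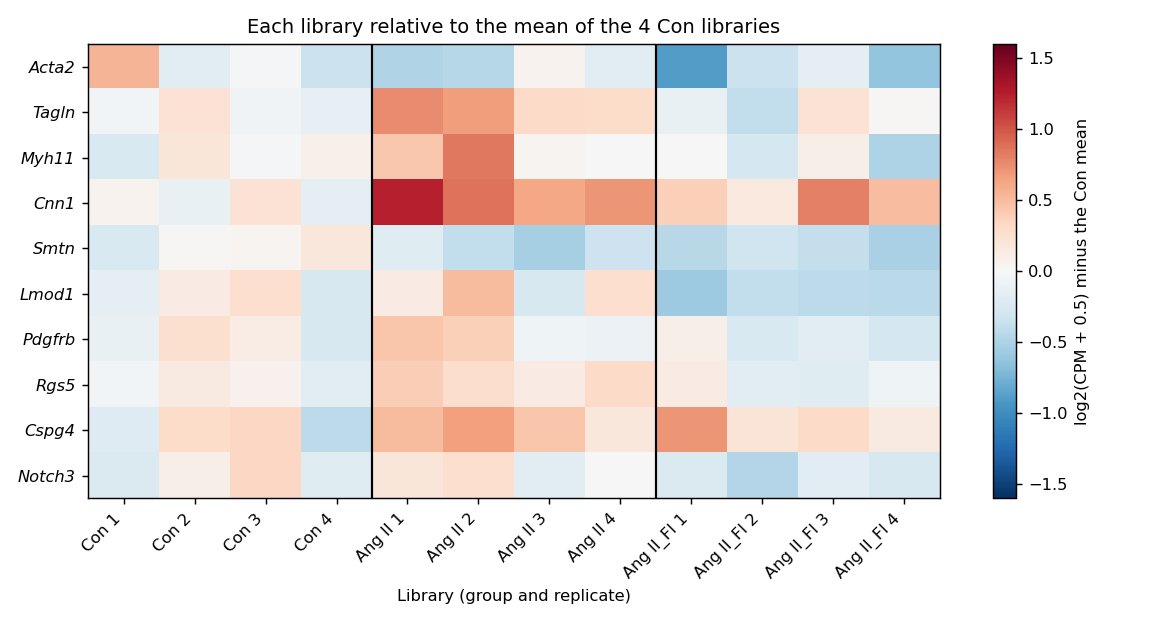
Heat map of each gene (rows) in each library (columns), coloured by its log2(CPM + 0.5) minus the mean of the 4 Con libraries. Cnn1 is above 0 in all 8 libraries with angiotensin II, and Smtn is below 0 in all 8. The median of the rows is higher in Ang II replicates 1 and 2 than in replicates 3 and 4, though not every row follows, and Acta2 is lower there.

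The comparison of Ang II_FI with Ang II asks what FI does to these transcripts under angiotensin II. No gene passed the test, among the 10 or among all 17376 (0.0% called), so no change was detected at this depth and number of libraries. At an unadjusted p under 0.05 the edgeR test gave 5 of the 10 genes, all with lower values in Ang II_FI, against 9.95% of all tested genes. DESeq2 and limma-voom called 0 of the 10, and over all genes limma-voom called 0 and DESeq2 called 12 with higher and 30 with lower values. Log2 fold changes were below 0 for 9 of the 10 and for 46.9% of all genes, and above 0 for 1 of the 10 and 53.1%. Their median was -0.29 beside 0.02 for all genes, and -0.29 without Ang II_FI replicate 3. This comparison and that of Ang II with Con share the 4 Ang II libraries, so values of opposite sign in the pair are not independent of each other.

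Lmod1 had the largest difference of the 10. Its Ang II_FI values were 0.831, 1.02, 0.989 and 0.980 CPM, below all 4 Ang II and all 4 Con values, with a mean of 0.955 ± 0.0840 against 1.76 ± 0.479 CPM in Ang II (SD, n = 4). The log2 fold change was -0.81 ± 0.23 (95% interval -1.31 to -0.31) with an edgeR unadjusted p of 0.00398 and an adjusted p of 0.411. Tagln lay at 10.5, 8.60, 13.5 and 11.6 CPM in Ang II_FI, all below the Ang II values and within or under the Con range. Its log2 fold change was -0.52 ± 0.14 (95% interval -0.82 to -0.22), also with an edgeR adjusted p of 0.411. Notch3 was the third gene with no overlap, by a narrow gap. It lay at 16.98, 14.2, 17.5 and 16.6 CPM in Ang II_FI, and the lowest Ang II value was 17.6 CPM (-0.30 ± 0.12, edgeR adjusted p = 0.460). Lower values with no overlap were thus found for 3 of the 10 genes and 5.12% of all tested genes, and higher ones for 0 of the 10 and 0.858%.

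Myh11 lay at 10.4, 8.48, 11.1 and 7.21 CPM and Rgs5 at 706, 571, 560 and 614 CPM in Ang II_FI. For both genes a single Ang II_FI library, replicate 3 for Myh11 and replicate 1 for Rgs5, reached into the Ang II range. Their log2 fold changes were -0.48 ± 0.18 and -0.28 ± 0.10, with edgeR adjusted p of 0.441 and 0.432. Cnn1 lay at 0.860, 0.665, 1.33 and 0.980 CPM, where replicate 3 alone was within the Ang II range (-0.51 ± 0.27, edgeR adjusted p = 0.550). Pdgfrb ranged from 39.7 to 51.6 CPM and Acta2 from 71.4 to 120 CPM, and both overlapped Ang II (-0.26 ± 0.14 and -0.19 ± 0.22). For Smtn, at 81.8 to 93.6 CPM, and Cspg4, at 10.9 to 16.3 CPM, the fitted differences were 0.01 ± 0.08 and -0.03 ± 0.19. The 95% intervals of these 2 differences were -0.16 to 0.19 for Smtn and -0.44 to 0.38 for Cspg4.

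Ang II_FI replicate 3, the library with hepatocyte transcripts, had the highest value of its group for 5 genes: Acta2, Tagln, Myh11, Cnn1 and Notch3. It also had the highest sum of 12 activated fibroblast genes in its group, 803 CPM against 519 to 595 CPM in the other 3 libraries. That list includes Fn1, which ranged from 20.5 to 305 CPM over all libraries. The part of Fn1 or of liver RNA in the sum of 803 CPM was not tested. Without replicate 3, the Ang II_FI means (n = 3) were 0.835 ± 0.159 CPM for Cnn1, 10.2 ± 1.51 CPM for Tagln and 87.2 ± 16.7 CPM for Acta2. With replicate 3 they were 0.959, 11.1 and 95.3 CPM. The log2 fold changes against Ang II were then -0.66 ± 0.29 for Cnn1, -0.60 ± 0.14 for Tagln, -0.54 ± 0.19 for Myh11 and -0.80 ± 0.26 for Lmod1, with edgeR adjusted p from 0.542 to 0.608. They were -0.21 ± 0.10 for Rgs5, -0.31 ± 0.14 for Notch3, -0.22 ± 0.15 for Pdgfrb, -0.28 ± 0.23 for Acta2, 0.03 ± 0.09 for Smtn and 0.01 ± 0.20 for Cspg4. None of the 10 was called, and 0.00565% of all genes were. At an unadjusted p under 0.05 there were 6 of 10 by edgeR, all lower, against 7.93%. Lower values with no overlap were found for 5 genes (Tagln, Myh11, Cnn1, Lmod1 and Notch3), against 9.99% of all genes, and higher ones for 0 against 1.32%. For Myh11 the groups barely parted, at 10.35 CPM in Ang II_FI replicate 1 and 10.36 CPM in Ang II replicate 4.

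Ang II_FI was also set against Con, which gives the difference of ventricles given both agents from those given neither. None of the 10 genes was called by edgeR, against 0.978% of all genes, 0.719% higher and 0.259% lower (1.24%, 0.932% and 0.311% without Ang II_FI replicate 3). Above 0 lay 2 of the 10 log2 fold changes and 53.4% of those of all genes, and below 0 lay 8 of the 10 and 46.6%. At an unadjusted p under 0.05 edgeR gave 4 of 10, 1 higher and 3 lower, against 17.3% of all genes. Smtn came nearest to the threshold: it lay at 85.5, 93.6, 89.6 and 81.8 CPM in Ang II_FI, below every Con library. Its log2 fold change was -0.37 ± 0.08 (95% interval -0.55 to -0.20), with adjusted p of 0.0521 by edgeR and 0.00255 by DESeq2 and, without Ang II_FI replicate 3, 0.0753 by edgeR. Lmod1 was the other gene whose values all lay below Con (-0.61 ± 0.23, edgeR adjusted p = 0.201). These 2 of 10 compare with 6.06% of all genes, and 0 of 10 with higher values and no overlap compare with 3.52%. Without Ang II_FI replicate 3 the lower ones were 3 of 10 (Acta2, Smtn and Lmod1) against 11.1%, the higher ones 0 against 4.76%, and 4 of 10 had an unadjusted edgeR p under 0.05 against 15.7%.

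Cnn1 was 0.83 ± 0.27 above Con on the log2 scale in Ang II_FI (edgeR adjusted p = 0.149) and 0.67 ± 0.29 without Ang II_FI replicate 3 (edgeR adjusted p = 0.291), and only Ang II_FI replicate 2 overlapped Con. For Acta2 the log2 fold change was -0.49 ± 0.22 (edgeR adjusted p = 0.281) and -0.59 ± 0.24 without Ang II_FI replicate 3. Tagln and Rgs5 differed little from Con in Ang II_FI. Their log2 fold changes were -0.02 for both genes, with 95% intervals of -0.32 to 0.28 for Tagln and -0.24 to 0.19 for Rgs5, and both turned positive in some settings with a library left out. Cspg4 was 0.39 ± 0.19 above Con, with an edgeR adjusted p of 0.316. The log2 fold changes of Notch3, Pdgfrb and Myh11 were -0.26 ± 0.12, -0.11 ± 0.14 and -0.12 ± 0.18. Without Ang II_FI replicate 3 the values were 0.43 for Cspg4, -0.26 for Notch3, -0.07 for Pdgfrb, -0.19 for Myh11, -0.60 for Lmod1, -0.10 for Tagln and 0.04 for Rgs5, and none was called.

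A further list of 31 genes, all tested, held genes of the contractile apparatus and others outside it, such as Itga5 and Aoc3. With Ang II against Con 4 rose and 0 fell by edgeR, against 1.57% and 0.662% of all tested genes, with a median log2 fold change of 0.21 (0.0047 over all genes). DESeq2 called 10 of the 31 higher and 0 lower, against 666 higher and 433 lower of all 17376 tested genes. Those that rose were Tpm2 (beta-tropomyosin, 0.54 ± 0.10), Myl6 (a myosin light chain found in muscle and other cells, 0.53 ± 0.11), Itga5 (the fibronectin receptor subunit, 0.51 ± 0.10) and Tagln2 (a transgelin found widely outside muscle, 0.83 ± 0.19). The edgeR adjusted p of these 4 were 0.0228 to 0.0424. Each of the 4 calls was lost when certain single libraries were left out: Con replicate 1 or 4 or Ang II replicate 2 or 4 for all 4 genes, Con replicate 2 or Ang II replicate 3 also for Myl6, Itga5 and Tagln2, and Con replicate 3 or Ang II_FI replicate 4 also for Tagln2. With Ang II_FI against Ang II none was called by edgeR (6 of 31 at an unadjusted p under 0.05, all lower, against 9.95% of all genes). DESeq2 called 2 lower, Aoc3 and Myl9, against 12 higher and 30 lower of all 17376 tested genes. The smallest p were those of Myl9, the regulatory light chain of smooth muscle myosin (-0.48 ± 0.10), and Aoc3, an amine oxidase of the smooth muscle surface (-0.64 ± 0.14), both with an edgeR adjusted p of 0.411. The list median was then -0.07.

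With Ang II_FI against Con 3 of the same 31 rose: Itga5 (0.60 ± 0.10), Myl6 (0.56 ± 0.11) and Tpm2 (0.50 ± 0.10), with edgeR adjusted p of 0.0242, 0.0345 and 0.0473 and a list median of 0.09. Of all genes 0.719% were higher by this test. DESeq2 called 4 of the 31 higher and 1 lower, against 486 higher and 361 lower of all 17376 tested genes. Tpm2 was no longer called without Ang II_FI replicate 3 (edgeR adjusted p = 0.0578), nor when any other library but Ang II replicate 2 was left out. The Myl6 call was lost without any 1 of the 4 Con libraries, Ang II replicate 2, 3 or 4 or Ang II_FI replicate 1 or 4. The Itga5 call was lost without Con replicate 1, 2 or 4 or Ang II_FI replicate 1.

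The tested regulators of these genes showed no called change. Of a list of 13 genes for serum response factor, myocardin and their partners, 11 were found by symbol among the genes counted. All 11 were tested, and the rest of the list was not read. Of these 11, 0 were called in any of the 3 comparisons by edgeR, DESeq2 or limma-voom. At an unadjusted p under 0.05 the edgeR test gave 2 of the 11 in each comparison, where all genes gave 16.8% (Ang II against Con), 9.95% (Ang II_FI against Ang II) and 17.3% (Ang II_FI against Con). The smallest p under Ang II against Con were those of Elk1 (-0.33 ± 0.11), a factor that competes with myocardin for serum response factor, and Mrtfa (0.31 ± 0.12), a myocardin relative released by actin assembly. Mrtfa was also the list's leading gene in Ang II_FI against Ang II, at 3.96 ± 0.464 against 5.85 ± 0.315 CPM (log2 fold change -0.50 ± 0.12, edgeR adjusted p = 0.411). Klf4, a repressor of contractile genes, followed at -0.42 ± 0.17. Against Con, the smallest p in Ang II_FI were those of Elk1 (-0.34 ± 0.11) and Myocd (0.30 ± 0.13), which encodes myocardin.

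Among 27 tested genes of a further list of 28 pericyte markers and signals, 1 rose and 1 fell with Ang II against Con, where 2.23% of all genes were called, with a list median log2 fold change of 0.13. DESeq2 called 2 of the 27 higher and 3 lower, against 666 higher and 433 lower of all 17376 tested genes. Cd248, the endosialin of pericytes and fibroblasts, went from 5.07 ± 1.21 to 9.55 ± 0.312 CPM (0.90 ± 0.17, edgeR adjusted p = 0.0226). Angpt1, the ligand by which mural cells steady endothelium through the receptor Tek, went from 35.7 ± 4.19 to 22.7 ± 1.803 CPM (-0.67 ± 0.11, edgeR adjusted p = 0.0138). The Cd248 call was lost without Con replicate 1 or 4 or Ang II replicate 2, 3 or 4, and the Angpt1 call without Ang II replicate 4 (edgeR adjusted p = 0.0507). Angpt1 stayed low in Ang II_FI, at 22.5 ± 2.97 CPM, and was called against Con there too (-0.62 ± 0.11, edgeR adjusted p = 0.0291), though not without Con replicate 1, 2 or 4, Ang II replicate 2 or Ang II_FI replicate 4. It was the 1 gene of the list called in Ang II_FI against Con (0.978% of all genes). Without Ang II_FI replicate 3 there were 2, as Cd248 was then called higher (edgeR adjusted p = 0.0271). Between Ang II_FI and Ang II edgeR called 0 (5 of 27 at an unadjusted p under 0.05, against 9.95% of all genes), with a list median of -0.21. Ebf1 lay at -0.80 ± 0.18 and Heyl at -0.48 ± 0.16. DESeq2 called 1, Ebf1, against 12 higher and 30 lower of all 17376 tested genes.

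The pathway genes of the 2 mural receptors gave no call by edgeR with all libraries. Of 5 tested genes of platelet-derived growth factor signalling outside Pdgfrb, 0 passed in any comparison by edgeR, DESeq2 or limma-voom, with 1, 2 and 0 at an unadjusted edgeR p under 0.05 (16.8%, 9.95% and 17.3% of all genes). The log2 fold changes with the smallest p were 0.34 ± 0.11 for Pdgfra under Ang II against Con and -0.64 ± 0.28 for Pdgfd under Ang II_FI against Ang II. Of 16 Notch pathway genes, 13 lay above 0 with Ang II against Con (median 0.21; 50.6% of all genes) and 15 lay below 0 with Ang II_FI against Ang II (median -0.25; 46.9% of all genes). By edgeR 0 were called in either, and 3 of 16 in each had an unadjusted p under 0.05, beside 16.8% and 9.95% of all genes. DESeq2 called 1, Notch4, in the first (666 higher and 433 lower of all 17376 genes) and 0 in the second (12 and 30). The leading one was Notch4, the endothelial receptor, at 12.5 ± 4.30 CPM in Con and 24.8 ± 7.49 CPM in Ang II. Its log2 fold change was 0.97 ± 0.25, with an edgeR adjusted p of 0.0633 with all libraries and 0.0473 without Ang II_FI replicate 3. Heyl, a Notch target of mural cells, and Notch1 led the second comparison at -0.48 ± 0.16 and -0.40 ± 0.15.

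**Figure D4:**
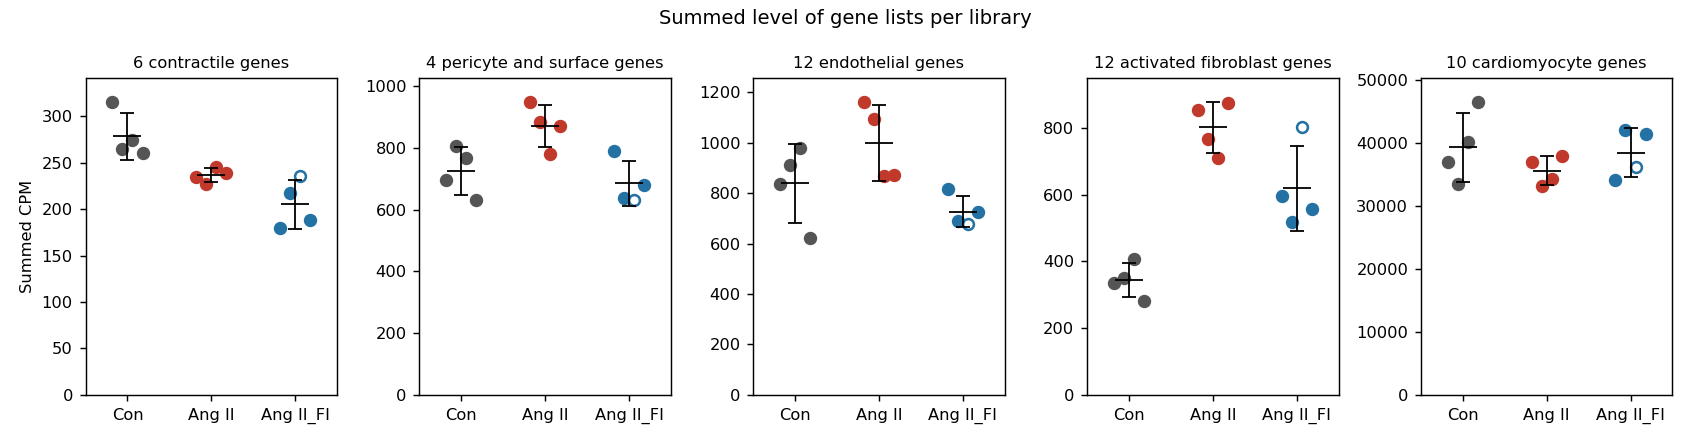
Summed CPM (vertical axes, from 0) of 5 gene lists in each library, with the mean and SD of each group as bars; the open point is Ang II_FI replicate 3. The 6 contractile genes lie at 260 to 316 CPM in Con and 228 to 246 CPM in Ang II, and the 12 activated fibroblast genes separate all 8 libraries with angiotensin II from Con.

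Markers of other cells moved beside these values. The 12 activated fibroblast genes summed to 282 to 408 CPM in Con and 711 to 875 CPM in Ang II. In Ang II_FI they summed to 519 to 803 CPM (519 to 595 without replicate 3). Of the 12, 9 rose with Ang II and 8 in Ang II_FI against Con (1.57% and 0.719% of all genes). Against Ang II, in Ang II_FI, 10 of the 12 lay below 0 with a median of -0.45. There edgeR called 0, with 7 at an unadjusted p under 0.05 and all lower (9.95% of all genes). DESeq2 called 3 lower (Col1a1, Col3a1 and Postn), against 30 lower of all 17376 tested genes. The 10 macrophage genes summed to 196 to 246, 322 to 363 and 284 to 324 CPM, and 10 resting fibroblast genes to 1747 to 2320, 2339 to 2617 and 2161 to 2305 CPM. The 12 endothelial genes summed to 623 to 981, 870 to 1162 and 677 to 816 CPM. Of these 12, 10 lay above 0 on the log2 scale in Ang II against Con and 12 lay below 0 in Ang II_FI against Ang II, with medians of 0.30 and -0.33 (50.6% and 46.9% of all genes). In both comparisons edgeR and DESeq2 called 0 of the 12, and 5 and 8 had an unadjusted edgeR p under 0.05, beside 16.8% and 9.95% of all genes. No gene of these 4 lists was at 0 in all libraries of a group. Of the 10 heart muscle genes, 8 lay below 0 in Ang II against Con (median -0.19, beside 49.4% of all genes). In Ang II_FI against Ang II 9 of the 10 lay above 0 (median 0.13, beside 53.1% of all genes). By edgeR 0 of them were called in either comparison. The part of all these cells in the values of Cnn1, Smtn, Tagln, Acta2 and the pericyte genes was not tested. Markers of fat, skeletal muscle and mesothelium summed to at most 0.734, 1.41 and 4.86 CPM in any library.

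The 6 contractile genes, whose sum is mostly Acta2 and Smtn, came to 260 to 316 CPM in Con, 228 to 246 CPM in Ang II and 179 to 236 CPM in Ang II_FI (179 to 217 without replicate 3). The 4 pericyte and mural genes, whose sum is mostly Rgs5, came to 632 to 805, 781 to 950 and 633 to 791 CPM. The sums of the contractile genes thus sat highest in Con and those of the pericyte genes highest in Ang II, while Cnn1, Tagln, Myh11 and Lmod1, all of lower level than Acta2 and Smtn, had their highest group mean in Ang II.

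Genes whose profile over the 12 libraries was most like that of Myh11 and of Rgs5 were sought by the mean absolute difference of centred log2(CPM + 0.5), among genes whose mean reached 1 CPM and with an SD at least 0.75 times that of the reference. For Myh11, among 5606 such genes, they were Zfp324 (0.0935), Ksr1 (0.107), Rian (0.116), Gja4 (0.124), the connexin of arterial endothelium, and Shank3 (0.129), and Tagln came at place 106. For Rgs5, among 10631 genes, they were Pkd2 (0.0496), Sparcl1 (0.0518), Ifi203 (0.0575), Rap1b (0.0577) and Jcad (0.0591), and Pdgfrb came at place 197. The search could find only those of the 10 genes that passed these limits, 4 for Myh11 (Acta2, Tagln, Lmod1 and Cspg4) and 8 for Rgs5 (all others but Cnn1), and none of these was among the 5 nearest.

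Counting limits differ among the 10 genes. Of windows of 50 bases in their transcripts, 58.3% in Tagln, 9.46% in Smtn (Gm11946 on the other strand) and 4.93% in Notch3 (chiefly Gm17276 on the other strand) also occur in other genes, against 0.326% in Acta2, 0.34% in Myh11 and none in Cnn1, Lmod1, Pdgfrb, Rgs5 and Cspg4. Gm48529 held 112 to 212 counts per library where Tagln held 608 to 1371. With the counts of Gm48529 added to Tagln, its log2 fold change in Ang II against Con was 0.47 ± 0.14 (edgeR adjusted p = 0.109), beside 0.51 without them. In Ang II_FI against Ang II it was -0.44 ± 0.14 (edgeR adjusted p = 0.411), beside -0.52, and in Ang II_FI against Con it was 0.03.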

How the data were processed

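RNA sequencing was done on ventricles of WT mice, with 4 libraries for each of 3 treatments, grouped by the sample titles. The values deposited by the authors are raw counts for each gene and library. The submitters' processing notes name HISAT, featureCounts 1.5.0-p3, DESeq 1.8.3 and the build GRCm38. Strand setting, handling of reads with several matches and annotation release: not given in the sources used here. Per the labels' protocols, RNA was extracted with TRIzol according to one field and with an RNeasy kit according to the other. The table also held 13 empty columns, and 27 symbols that a spreadsheet had turned into dates were repaired by gene ID. Positions and exon lengths came from GENCODE M21 (GRCm38), which matched 55154 IDs (99.5%).

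Genes were kept with filterByExpr and scaled with TMM, and edgeR 4.0.16 (R 4.3.3) fitted its quasi-likelihood model to the 12 libraries with 3 group means. Benjamini-Hochberg adjustment ran over 17376 genes. Depth was 68874852 to 80624227 counts per library. The fit was tested on simulated data in which known genes had been altered. The alternatives were DESeq2 1.42.0, limma-voom (limma 3.58.1), other scalings, filters and designs, and leaving out each library. Adding the counts of Gm48529 to Tagln was chosen after seeing the data. The 10 genes, the other gene lists and the rules were chosen with earlier results of these data known. All 10 genes are named, and of each other list up to 4 called genes per comparison by p or, with none called, the 2 with the smallest p.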

Additional observations from a re-analysis of the deposited data

How the results depend on the processing

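Of the 10 genes, 2 were called in Ang II against Con; the number was 3 with DESeq2 (Cnn1, Smtn and Tagln), 1 with library totals alone (Cnn1), 0 with no low-count filter, 0 with the replicate block, 1 without Ang II_FI replicate 3 and Ang II replicate 3 together, and 0 to 2 with 1 library left out. In Ang II_FI against Con it was 0, and 1 (Smtn) with DESeq2 and with a minimum of 1 CPM in 4 libraries. In Ang II_FI against Ang II it was 0 in every setting run. The cause of these moves was not tested. Reversed signs were all of uncalled log2 fold changes near 0. For Notch3 (Ang II against Con) they were -0.0091, -0.023 and -0.019 without Con replicate 1, Con replicate 4 and Ang II replicate 2, in a range of -0.023 to 0.153 with 1 library left out. For Smtn (Ang II_FI against Ang II) they were -0.047 with library totals alone and -0.0035, -0.016 and -0.030 without Ang II replicate 2, Ang II replicate 3 and Ang II_FI replicate 2 (range -0.030 to 0.042). For Cspg4 they were 0.037, 0.012, 0.012 and 0.026 without Ang II replicate 2 and Ang II_FI replicates 2, 3 and 4 (range -0.192 to 0.037), and 0.038 without both replicates numbered 3. For Tagln (Ang II_FI against Con) they were 0.07 and 0.079 without Con replicate 2 and Ang II_FI replicate 2 and 0.029 with Gm48529 added (range -0.0956 to 0.079). For Rgs5 they were 0.026, 0.0016 and 0.039 without Con replicate 2, Ang II_FI replicate 2 and Ang II_FI replicate 3 (range -0.112 to 0.039), and 0.039 without both replicates numbered 3.

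Over all genes, 273 were higher and 115 lower in Ang II against Con. These were 666 and 433 with DESeq2, 261 and 57 with library totals alone, 152 and 38 with no filter, 105 and 19 with the replicate block, and from 79 and 11 to 441 and 242 with 1 library left out. Between Ang II_FI and Ang II 0 were called, 12 and 30 with DESeq2, 0 and 2 without both replicates numbered 3, and 0 or 1 with 1 library left out. In Ang II_FI against Con, 125 and 45 became 486 and 361 with DESeq2, 50 and 14 with no filter, 179 and 82 with the 1 CPM minimum, 35 and 13 with only 2 groups in the fit, 51 and 10 with the block, and from 35 and 6 to 165 and 55 with 1 library left out. Libraries with the same replicate number did not deviate together: their correlations were -0.057 to 0.105 over 12 pairs, against -0.080 to 0.079 over 36 pairs with different numbers, and 8 of 24 comparisons with another group gave the best match to the same number. With 31 to 160 counts per library, Cnn1 and Lmod1 are the genes that depth limits most.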
